A study of Mus musculus with 6 samples.

Results

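The laminin chains and the integrin subunits of the mouse mammary gland were examined in glands of Brca1 mutant and control mice. They were taken by name, as every gene whose symbol is Lama, Lamb or Lamc plus a digit, or Itga or Itgb plus a number, a letter or 2b. Of 18193 genes with a probe set of a single symbol, 34 qualified, namely 10 laminin chains, 16 integrin alpha subunits and 8 integrin beta subunits. Each gene was represented by its brightest probe set. A mean level filter, described under the processing, left 30 of the 34 for testing, 9 laminins and 21 integrins, and Itga2, Itgb3, Itgb6 and Lamc3 fell below it. Itga11 and Itgad were not analysed here.

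Whole mammary glands of 6 mice were profiled, 1 gland sample per array, all female and of a mixed 129/FVB/Black Swiss background, and the study looked for genes regulated by Brca1, a tumour suppressor gene of DNA repair. The virgin mutant was Brca1 D11/D11;p53+/- and its control Brca1 D+/+;p53+/-, both 6 months old. The pregnant mutant was Brca1 co/co/MMTV-Cre and its control Brca1 +/co/MMTV-Cre, both 5 months old and at day 16.5 of pregnancy. Here a Cre gene driven by the mouse mammary tumour virus promoter acts on a conditional Brca1 allele, so the deletion is limited to cells in which that promoter is active, the control carries the same Cre, and the labels give no p53 genotype. The lactating mutant and control had the virgin pair's genotypes and were 2 months old on day 1 of lactation. All mice of the virgin and lactating pairs, controls included, thus carried a single intact p53 copy. The design text of the series names only the D11/D11 genotype for its mutants, which conflicts with the labels of the pregnant pair, and the sample labels were followed. Each stage is represented by 1 pair, so what differs between pairs cannot be told apart from stage. Age differs in every stage comparison, the Brca1 allele in those with pregnant glands, and the array date in those with lactating glands.

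Signals had been scaled so that each array had the same trimmed mean of 500, and the median signal was 211 and 231 on the arrays of the lactating mutant and control but only 119.9 to 158 on the other 4. The ratio of 3' to 5' actin signal, which rises as RNA degrades, lay between 1.37 and 2.74, and it was highest on the virgin arrays, at 2.03 for the mutant and 2.74 for the control, against at most 1.91 on the other 4. The same ratio for Gapdh was 1.52 for the virgin mutant and 3.5 for the virgin control, against 0.73 to 1.2 on the other 4. RNA quality thus moves with the comparisons against virgin glands, and its part in them was not tested. Probe sets of Y-linked genes, which should be dark in female mice, had a median signal of 33.6, with 90% of their values under 185 and a highest value of 484. Of the tested laminins and integrins, Itga1, Itga7, Itga9, Itga10, Itgae, Itgam and Itgax lay below that highest value on every array. In the lists of luminal and basal epithelial markers, 0 genes lay under the Y-linked median on all arrays. That is a weak check, since it asks for a signal under 33.6 on every array, and it does not show that each marker was detected. Brca1 had signals of 487 in the virgin mutant and 137 in the virgin control, 288 in the pregnant mutant and 159 in the pregnant control, and 157 in the lactating mutant and 238 in the lactating control. The sources used here do not place its 4 probe sets with respect to the deleted exons, and these values thus do not check the genotypes. In whole glands, fewer cells of a type and less RNA per cell cannot be told apart.

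Laminins are secreted as trimers of an alpha, a beta and a gamma chain, and they form the sheet-like polymer of the basement membrane that surrounds epithelial ducts and alveoli, muscle fibres, fat cells, nerves and capillaries. Integrins are receptors of an alpha and a beta subunit that span the cell membrane and join such matrix proteins, or partners on other cells, to the cytoskeleton. In the mammary gland the basal (myoepithelial) cells rest on the basement membrane, and cultured mammary epithelial cells need laminin, sensed through integrins that hold Itgb1, to make milk proteins when they are given prolactin.

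The promoters of 4 laminin genes are shown because these chains moved in opposite directions between stages: Lamb3 and Lama5 rose, and Lama2 and Lamb1 fell. Each runs 5′ to 3′ on the strand of the gene, from 250 bases before to 50 after the transcription start in RefSeq (build GRCm38.p6), with a GC box (GGGCGG on either strand) or a CCAAT box (CCAAT on either strand) in capitals.
Lamb3, chr1:193301744-193302043, plus strand: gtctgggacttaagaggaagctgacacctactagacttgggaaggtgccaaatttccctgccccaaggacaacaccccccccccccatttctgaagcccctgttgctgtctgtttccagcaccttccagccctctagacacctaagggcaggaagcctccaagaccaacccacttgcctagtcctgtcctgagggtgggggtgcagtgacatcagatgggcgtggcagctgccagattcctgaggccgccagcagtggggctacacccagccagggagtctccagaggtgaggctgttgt
Lama5, chr2:180225810-180226109, minus strand: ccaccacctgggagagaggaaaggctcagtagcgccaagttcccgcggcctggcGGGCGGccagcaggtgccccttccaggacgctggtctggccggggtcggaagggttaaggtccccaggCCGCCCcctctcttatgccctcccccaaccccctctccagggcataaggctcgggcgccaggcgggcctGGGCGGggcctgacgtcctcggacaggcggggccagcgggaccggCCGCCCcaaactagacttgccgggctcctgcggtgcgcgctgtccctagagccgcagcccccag
Lama2, chr10:27616893-27617192, minus strand: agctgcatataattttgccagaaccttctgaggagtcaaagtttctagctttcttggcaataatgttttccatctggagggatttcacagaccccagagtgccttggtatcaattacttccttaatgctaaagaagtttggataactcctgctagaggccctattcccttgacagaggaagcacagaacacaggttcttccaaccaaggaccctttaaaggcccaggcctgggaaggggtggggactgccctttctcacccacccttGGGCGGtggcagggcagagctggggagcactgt
Lamb1, chr12:31265043-31265342, plus strand: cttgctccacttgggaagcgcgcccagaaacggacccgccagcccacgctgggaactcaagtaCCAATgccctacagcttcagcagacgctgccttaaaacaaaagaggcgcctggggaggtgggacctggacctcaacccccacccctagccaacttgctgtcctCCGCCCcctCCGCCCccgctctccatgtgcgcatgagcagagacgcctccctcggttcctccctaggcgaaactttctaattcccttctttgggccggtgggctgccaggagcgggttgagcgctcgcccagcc

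The promoter of Lama5 held 4 GC boxes, at offsets of -196, -128, -59 and -14 from the start base, and 72.7% of its bases were G or C. The Lamb1 promoter held 2 GC boxes, at -84 and -75, and a CCAAT box at -187, with 63.7% G or C. The Lama2 promoter held 1 GC box, at 17 bases after the start, with 50.3% G or C, and the Lamb3 promoter held none of the motifs searched, with 59.3%. The median over all promoters was 52.7% G or C, so the promoters of a chain that rose and of a chain that fell, Lama5 and Lamb1, both lay above it. RefSeq starts were found for 22 of the 34 genes, with 25 promoters. Among these, 12 held a GC box, 4 a CCAAT box, 3 the AP-1 motif TGANTCA, 2 the STAT-type motif TTCNNNGAA and 0 the TATA box TATAAA. Of all 32851 promoters of the same length, 35.7% held a GC box, 37.4% a CCAAT box, 7.8% TGANTCA, 8.3% TTCNNNGAA and 13.6% TATAAA. Both strands were searched, and no matches overlapped in the promoters shown. A match gives the letters in this window and does not show that a factor binds.

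Between stages, the laminins split into chains that were lower in lactating than in virgin glands (Lama2, Lama4 and Lamb1, and by a smaller margin Lamb2) and chains that were higher (Lama5 and Lamb3), while Lamc1, the gamma chain of most laminins, did not pass the test in any comparison. Among the integrins, the laminin receptor subunits Itga3 and Itga6 were higher in lactating than in virgin glands. So were the matrix receptor subunits Itga5 and Itga8, though another Itga5 probe set went the other way. The leukocyte subunits Itgal, Itgb2 and Itgb7 were lower, and Itgb7 passed the filter only through its virgin arrays. Stages were compared in a limma linear model on log2(signal + 52.1) with genotype as a term, 2 arrays per stage, and a gene was called at an adjusted p under 0.05 over all 11562 tested genes. Changes are given as log2 ratios ± the standard error of the model, the later stage over the earlier. The 3 stage comparisons share arrays and are not independent of each other.

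In pregnant against virgin glands 3 of the 30 tested genes rose (10%, against 6.56% of all tested genes) and 4 fell (13.3%, against 8.03%). In lactating against pregnant glands 5 rose (16.7%, against 15.5%) and 6 fell (20%, against 17.2%). In lactating against virgin glands 7 rose (23.3%, against 24.2%) and 10 fell (33.3%, against 28.5%). These shares lay near those of all genes, so the numbers of calls do not set the group apart, and the results below concern which genes moved. The median log2 ratio of the 30 genes was -0.15 for pregnant against virgin, where it was -0.06 over all tested genes, then 0.02 against -0.03 for lactating against pregnant, and -0.17 against -0.10 for lactating against virgin. The counts depend on single arrays. For pregnant against virgin, 0 of the 30 were called without the virgin control, 1 without the pregnant control and 4 without the pregnant mutant. For lactating against pregnant, 4 were called without either pregnant array and 7 without the lactating control. For lactating against virgin the count stayed between 13 and 17. For lactating against pregnant, the calls of Lama2, Lama4 and Lamb1 held whichever array was left out, and those of the other 8 genes were lost without at least 1 array. For lactating against virgin, Itga4, Itga7, Itgb5 and Itgb7 lost their calls without at least 1 array and the other 13 genes kept theirs.

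**Figure D1:**
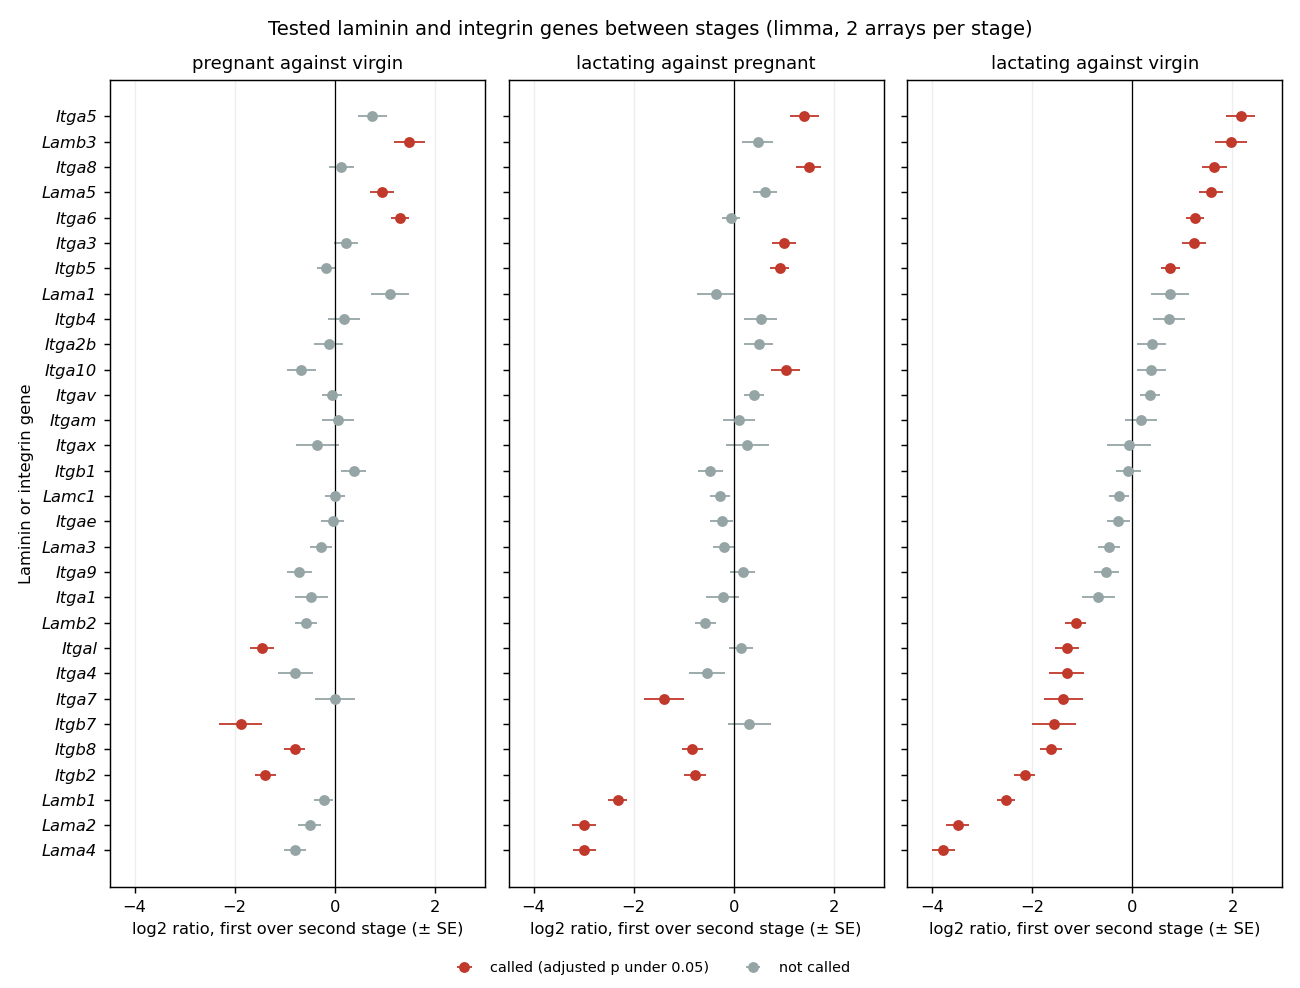
Log2 ratios of the 30 tested laminin and integrin genes between stages, as points with standard errors from limma on 2 arrays per stage, the later stage over the earlier. Red points passed an adjusted p of 0.05, 7 for pregnant against virgin, 11 for lactating against pregnant and 17 for lactating against virgin, and genes are ordered by the last of these, with Lama4 at the foot at -3.78.

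Lama2 encodes the alpha chain of muscle and peripheral nerve basement membranes. Its signals were 1828 in the virgin mutant and 2312 in the virgin control, 1640.0 in the pregnant mutant and 1254 in the pregnant control, and 136 in the lactating mutant and 134 in the lactating control. It fell in lactating against pregnant glands (log2 ratio -2.99 ± 0.23, adjusted p = 0.000838) and in lactating against virgin glands (log2 ratio -3.50 ± 0.23, adjusted p = 1e-04), whereas pregnant against virgin gave -0.50 ± 0.23 (adjusted p = 0.186). Both lactating arrays lay far below the other 4, at a level within the range of the Y-linked probe sets.

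Lama4, the alpha chain of vessel wall and fat basement membranes, had signals of 1942 in the virgin mutant and 2363 in the virgin control, 1306 in the pregnant mutant and 1122 in the pregnant control, and 92.1 in the lactating mutant and 125 in the lactating control. Its log2 ratio was -2.98 ± 0.22 for lactating against pregnant (adjusted p = 0.000784) and -3.78 ± 0.22 for lactating against virgin (adjusted p = 8.28e-05). The pregnant glands were below the virgin glands on each array, at -0.80 ± 0.22, without passing the test (adjusted p = 0.0528). A dimmer probe set of Lama4 was higher in lactating than in virgin glands. It had 158 and 184 in the lactating mutant and control, and 72.7 and 108 in the virgin mutant and control. The fall from virgin to lactating glands thus holds for the brighter probe set only. In the pregnant mutant and control the dimmer probe set had 280 and 348. For lactating against pregnant glands it fell as well, by less, at -0.71.

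Lamb1, the beta chain that joins Lamc1 in many epithelial and stromal laminins, had signals of 4001 in the virgin mutant and 4950.0 in the virgin control, 3759 in the pregnant mutant and 3887 in the pregnant control, and 658 in the lactating mutant and 802 in the lactating control. It fell in lactating against pregnant glands (log2 ratio -2.31 ± 0.19, adjusted p = 0.000929) and in lactating against virgin glands (log2 ratio -2.53 ± 0.19, adjusted p = 0.000136). The 4 virgin and pregnant arrays lay close together and both lactating arrays well below all of them. Its other probe sets above the filter gave -3.27 and -1.64 for lactating against virgin. The calls of Lama2, Lama4 and Lamb1 in both lactating comparisons held under each of the 16 alternatives that could be run for them.

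Lamb2, a beta chain of synaptic, kidney and vessel wall basement membranes, had signals of 717 in the virgin mutant and 682 in the virgin control, 471 in the pregnant mutant and 437 in the pregnant control, and 282 in the lactating mutant and 297 in the lactating control. The stages did not overlap, and lactating against virgin gave -1.14 ± 0.22 (adjusted p = 0.00395). The steps between neighbouring stages did not pass, at -0.57 ± 0.22 for pregnant against virgin (adjusted p = 0.118) and -0.57 ± 0.22 for lactating against pregnant (adjusted p = 0.0814).

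Lama5, the alpha chain of most adult epithelial and vessel basement membranes, had signals of 538 in the virgin mutant and 352 in the virgin control, 841 in the pregnant mutant and 930.1 in the pregnant control, and 1679 in the lactating mutant and 1157 in the lactating control. It rose in pregnant against virgin glands by 0.94 ± 0.24 (adjusted p = 0.0405) and in lactating against virgin glands by 1.57 ± 0.24 (adjusted p = 0.0016). Levels climbed over the 3 stages with no overlap between them. The step from virgin to pregnant glands did not pass under 5 of the processing alternatives, among them quantile normalization and median centring. A second, dimmer probe set moved less, at 0.26 for lactating against virgin.

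Lamb3, the beta chain of the laminin that anchors epithelial cells at hemidesmosomes, had signals of 886 in the virgin mutant and 513 in the virgin control, 1581 in the pregnant mutant and 2497 in the pregnant control, and 2834 in the lactating mutant and 2769 in the lactating control. It rose in pregnant against virgin glands by 1.49 ± 0.31 (adjusted p = 0.0215) and in lactating against virgin glands by 1.97 ± 0.31 (adjusted p = 0.0018), while lactating against pregnant gave 0.48 ± 0.31 (adjusted p = 0.262). Virgin glands were lowest on both arrays. The rise in pregnant glands was lost without the pregnant control and without the virgin control. Lama3, which encodes the alpha chain of the same laminin, had signals of 671 in the virgin mutant and 525 in the virgin control, 482 in the pregnant mutant and 486 in the pregnant control, and 390.1 in the lactating control. The lactating mutant lay between the lactating control and the pregnant mutant. Lama3 did not pass in any comparison, and its lactating against virgin value was -0.47 ± 0.22 (adjusted p = 0.109).

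Lama1, the alpha chain of embryonic basement membranes and of some adult epithelia, had signals of 431 in the virgin mutant and 208 in the virgin control, 698 in the pregnant mutant and 726 in the pregnant control, and 396 in the lactating mutant and 738 in the lactating control. Pregnant against virgin gave 1.11 ± 0.38 without passing (adjusted p = 0.091). The virgin and pregnant arrays did not overlap, whereas the range of the lactating arrays overlapped both. Lamc1 had signals of 1614 in the virgin mutant and 1454 in the virgin control, 1656 in the pregnant mutant and 1424 in the pregnant control, and 1546 in the lactating mutant and 1036 in the lactating control. Its log2 ratio was 0.00 ± 0.20 for pregnant against virgin and -0.27 ± 0.20 for lactating against virgin (adjusted p = 0.299). A dimmer Lamc1 probe set above the filter differed from this, with 1.56 for pregnant against virgin, -2.61 for lactating against pregnant and -1.05 for lactating against virgin, so the flat level holds for the brighter probe set only. Lamc3, a gamma chain of restricted distribution, was dim and not tested, with signals of 319.6 in the virgin mutant and 285 in the virgin control, 226 in the pregnant mutant and 106 in the pregnant control, and 64.3 in the lactating mutant and 23.6 in the lactating control. The virgin arrays were its highest and the lactating arrays its lowest.

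**Figure D2:**
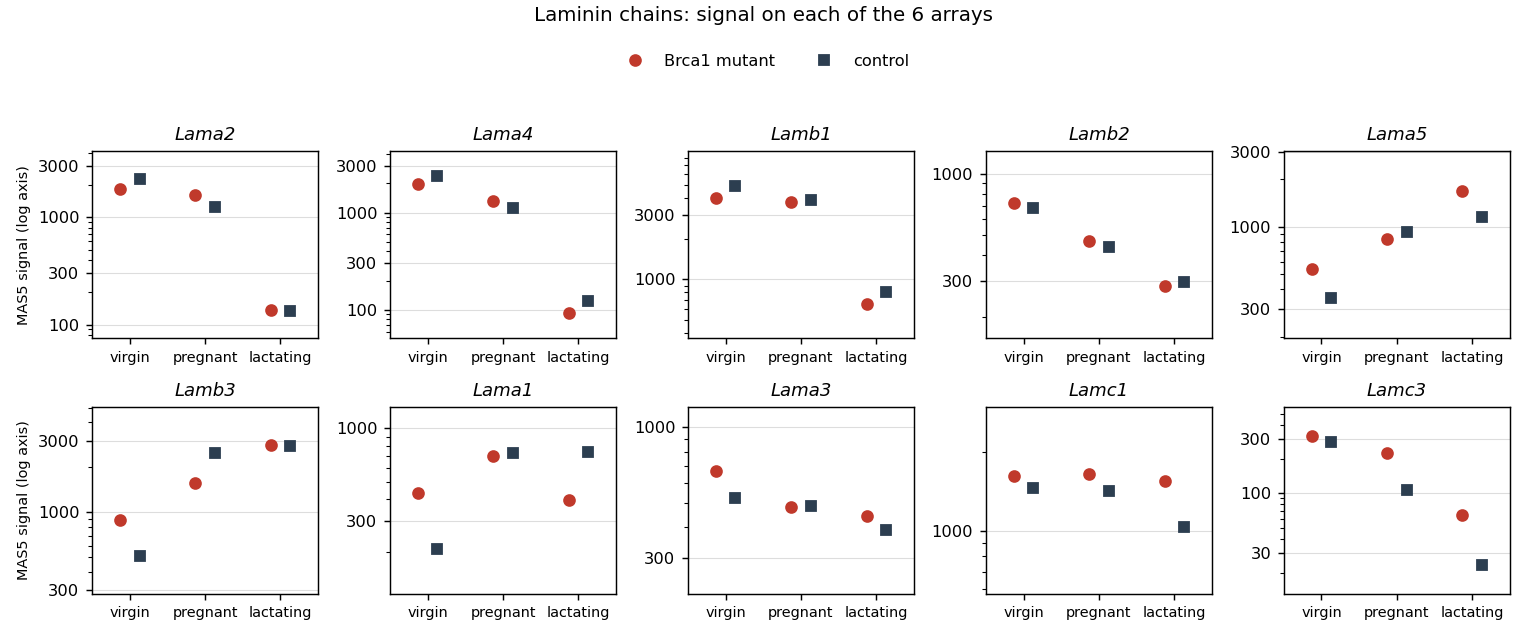
Signals of the 10 laminin chains on each of the 6 arrays, on log axes that differ between panels, with Brca1 mutants as red circles and controls as dark squares for virgin, pregnant and lactating glands. Lama2, Lama4 and Lamb1 drop on both lactating arrays, for example Lama2 to 136 and 134 in the mutant and control, whereas Lama5 and Lamb3 are lowest on the virgin arrays.

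Among the integrins that bind laminin, Itga6 pairs with Itgb1 or, at hemidesmosomes, with Itgb4. Its signals were 3873 in the virgin mutant and 3689 in the virgin control, 8964 in the pregnant mutant and 9885 in the pregnant control, and 8621 in the lactating mutant and 9525 in the lactating control. It rose in pregnant against virgin glands by 1.30 ± 0.19 (adjusted p = 0.00639) and in lactating against virgin glands by 1.25 ± 0.19 (adjusted p = 0.00141). The 4 pregnant and lactating arrays were all above both virgin arrays, and lactating against pregnant gave -0.06 ± 0.19. A second Itga6 probe set moved further in the same direction, at 3.54 for lactating against virgin.

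Itga3, the alpha subunit of another epithelial laminin receptor, had signals of 436 in the virgin mutant and 404 in the virgin control, 515 in the pregnant mutant and 479.5 in the pregnant control, and 1372 in the lactating mutant and 810.0 in the lactating control. It rose in lactating glands, by 1.01 ± 0.24 relative to pregnant (adjusted p = 0.0188) and by 1.23 ± 0.24 relative to virgin glands (adjusted p = 0.00451). The virgin and pregnant arrays lay between 404 and 515, and the lactating mutant stood highest. Both calls were lost when arrays were centred on their medians. Itgb4, the hemidesmosome partner of Itga6, had signals of 291 in the virgin mutant and 228 in the virgin control, 281 in the pregnant mutant and 322 in the pregnant control, and 689 in the lactating mutant and 303 in the lactating control. The lactating mutant alone stood out, and lactating against virgin gave 0.73 ± 0.33 without passing (adjusted p = 0.0962).

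Itga7, the laminin receptor subunit of skeletal and smooth muscle, had signals of 355 in the virgin mutant and 326 in the virgin control, 275 in the pregnant mutant and 425 in the pregnant control, and 165 in the lactating mutant and 52.5 in the lactating control. It fell in lactating against pregnant glands (log2 ratio -1.39 ± 0.40, adjusted p = 0.0333) and in lactating against virgin glands (log2 ratio -1.38 ± 0.40, adjusted p = 0.0212). Both lactating arrays were the lowest, and both calls were lost without the lactating control, which had the lowest signal, the first also without the pregnant control and the second without either virgin array. The summed signal of 20 skeletal muscle markers was 21394 in the virgin mutant and 60530.0 in the virgin control, 265460.0 in the pregnant mutant and 227430.0 in the pregnant control, and 119300.0 in the lactating mutant and 128420.0 in the lactating control. This sum was lowest on the virgin arrays and highest on the pregnant arrays, with the lactating arrays between them. Itga7 gave 0.01 ± 0.40 for pregnant against virgin glands (limma adjusted p = 0.989). Of the 18 muscle markers tested, 17 rose in pregnant against virgin glands (6.56% of all tested genes) and 14 in lactating against virgin glands (24.2% of all tested genes), with 0 falling in either. In lactating against pregnant glands, where Itga7 and Lama2 fell, 10 of the 18 muscle markers fell (17.2% of all tested genes) and 0 rose, with a median log2 ratio of -1.15. Their part in the results for Itga7 and Lama2 was not tested.

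Itgb1, the beta subunit shared by most matrix integrins, had signals of 2815 in the virgin mutant and 2135 in the virgin control, 2785 in the pregnant mutant and 3688 in the pregnant control, and 2023 in the lactating mutant and 2644 in the lactating control. It passed in no stage comparison, with 0.38 ± 0.24 for pregnant against virgin (adjusted p = 0.331), -0.46 ± 0.24 for lactating against pregnant (adjusted p = 0.18) and -0.08 ± 0.24 for lactating against virgin (adjusted p = 0.793). Of its other probe sets above the filter, one gave 0.32, -0.79 and -0.47 in the same order, and a dimmer one 1.20, -1.89 and -0.70.

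Of the alpha subunits that bind the RGD motif of fibronectin and related proteins, Itga5, the classical fibronectin receptor subunit, had signals of 90.0 in the virgin mutant and 68.8 in the virgin control, 169 in the pregnant mutant and 168 in the pregnant control, and 501 in the lactating mutant and 572 in the lactating control. It rose in lactating glands, by 1.41 ± 0.29 relative to pregnant (adjusted p = 0.0118) and by 2.16 ± 0.29 relative to virgin glands (adjusted p = 0.000963). Signals climbed over the 3 stages with no overlap, and the virgin and pregnant arrays lay within the Y-linked range. A probe set of Itga5 under the filter ran the other way, with 25.4 and 31.1 in the lactating mutant and control against 179 and 143 in the virgin mutant and control. On both virgin arrays it was brighter than the probe set used, so the rise holds for the probe set used only.

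Itga8, a subunit that binds nephronectin, had signals of 1113 in the virgin mutant and 1031 in the virgin control, 905 in the pregnant mutant and 1525 in the pregnant control, and 3531 in the lactating mutant and 3337 in the lactating control. It rose in lactating glands, by 1.50 ± 0.25 relative to pregnant (adjusted p = 0.00623) and by 1.63 ± 0.25 relative to virgin glands (adjusted p = 0.00164). Both lactating arrays were at least 2-fold above each of the other 4, and a second probe set agreed in direction at 2.08. Itgav, the partner of several beta subunits, had signals of 3454 in the virgin mutant and 4677 in the virgin control, 3484 in the pregnant mutant and 4281 in the pregnant control, and 5162 in the lactating mutant and 5138 in the lactating control. Its range was narrow and no stage comparison passed, with 0.41 ± 0.20 for lactating against pregnant (adjusted p = 0.146).

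Itgb5 joins Itgav in a receptor for vitronectin and Mfge8. Its signals were 1514 in the virgin mutant and 1548 in the virgin control, 1362 in the pregnant mutant and 1353 in the pregnant control, and 2839 in the lactating mutant and 2431 in the lactating control. The probe set gave 0.93 ± 0.19 for lactating against pregnant (adjusted p = 0.0118) and 0.76 ± 0.19 for lactating against virgin (adjusted p = 0.0123), with both lactating arrays above the other 4. The other 3 probe sets of Itgb5 above the filter gave -0.81, -0.48 and -0.16 for lactating against virgin, so the direction of Itgb5 depends on the probe set. Itgb8, which with Itgav activates latent TGF-beta, had signals of 1327 in the virgin mutant and 1897 in the virgin control, 868 in the pregnant mutant and 908 in the pregnant control, and 481 in the lactating mutant and 477 in the lactating control. It fell in pregnant against virgin glands (log2 ratio -0.80 ± 0.22, adjusted p = 0.048), in lactating against pregnant glands (log2 ratio -0.82 ± 0.22, adjusted p = 0.0262), and in lactating against virgin glands (log2 ratio -1.63 ± 0.22, adjusted p = 0.000951). It was the only member that passed in all 3 comparisons besides Itgb2, its 3 stages did not overlap, and the first of these calls was lost under 5 of the processing alternatives.

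The platelet and further beta subunits gave no call. Itgb3, the platelet and vessel subunit, had signals of 6.20 in the virgin mutant and 106 in the virgin control, 73.6 in the pregnant mutant and 91.6 in the pregnant control, and 149.6 in the lactating mutant and 112 in the lactating control. Itgb6, an epithelial subunit that activates latent TGF-beta, had signals of 63.1 in the virgin mutant and 76.4 in the virgin control, 76.1 in the pregnant mutant and 131 in the pregnant control, and 156 in the lactating mutant and 188 in the lactating control. Neither was tested, and all of their values lay within the range of the Y-linked probe sets. Itga2b, the platelet partner of Itgb3, had signals of 506 in the virgin mutant and 410.1 in the virgin control, 542 in the pregnant mutant and 315 in the pregnant control, and 531 in the lactating mutant and 698 in the lactating control. It passed in no stage comparison, and the range of its pregnant arrays overlapped those of the virgin and the lactating arrays.

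Itga4 and Itga9 bind fibronectin, Vcam1 or tenascin, and Itga4 is carried mainly by leukocytes. Signals of Itga4 were 385 in the virgin mutant and 613 in the virgin control, 278 in the pregnant mutant and 243 in the pregnant control, and 89.8 in the lactating mutant and 278 in the lactating control. Lactating against virgin gave -1.32 ± 0.36 (adjusted p = 0.0166), with the lactating mutant lowest, and the call was lost without it and without either virgin array. Signals of Itga9 were 417 in the virgin mutant and 382 in the virgin control, 225 in the pregnant mutant and 224 in the pregnant control, and 242 in the lactating mutant and 284 in the lactating control. The virgin arrays were its highest, and lactating against virgin gave -0.52 ± 0.25 without passing (adjusted p = 0.119).

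The collagen receptor subunits had low signals on every array. Itga10, known from cartilage, had signals of 334 in the virgin mutant and 179 in the virgin control, 151 in the pregnant mutant and 123 in the pregnant control, and 377 in the lactating mutant and 297 in the lactating control. It rose in lactating against pregnant glands by 1.04 ± 0.29 (adjusted p = 0.0306), a call lost under quantile normalization and under median centring. The virgin mutant overlapped the lactating arrays, and lactating against virgin gave 0.37 ± 0.29 (adjusted p = 0.303). Itga1 had signals of 371 in the virgin mutant and 428 in the virgin control, 315 in the pregnant mutant and 237 in the pregnant control, and 156 in the lactating mutant and 327 in the lactating control. The lactating mutant was its lowest array and no comparison passed. Itga2, which is epithelial, was not tested and had signals of 76.3 in the virgin mutant and 101 in the virgin control, 125 in the pregnant mutant and 122 in the pregnant control, and 257 in the lactating mutant and 306 in the lactating control. Both lactating arrays were above the other 4.

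**Figure D3:**
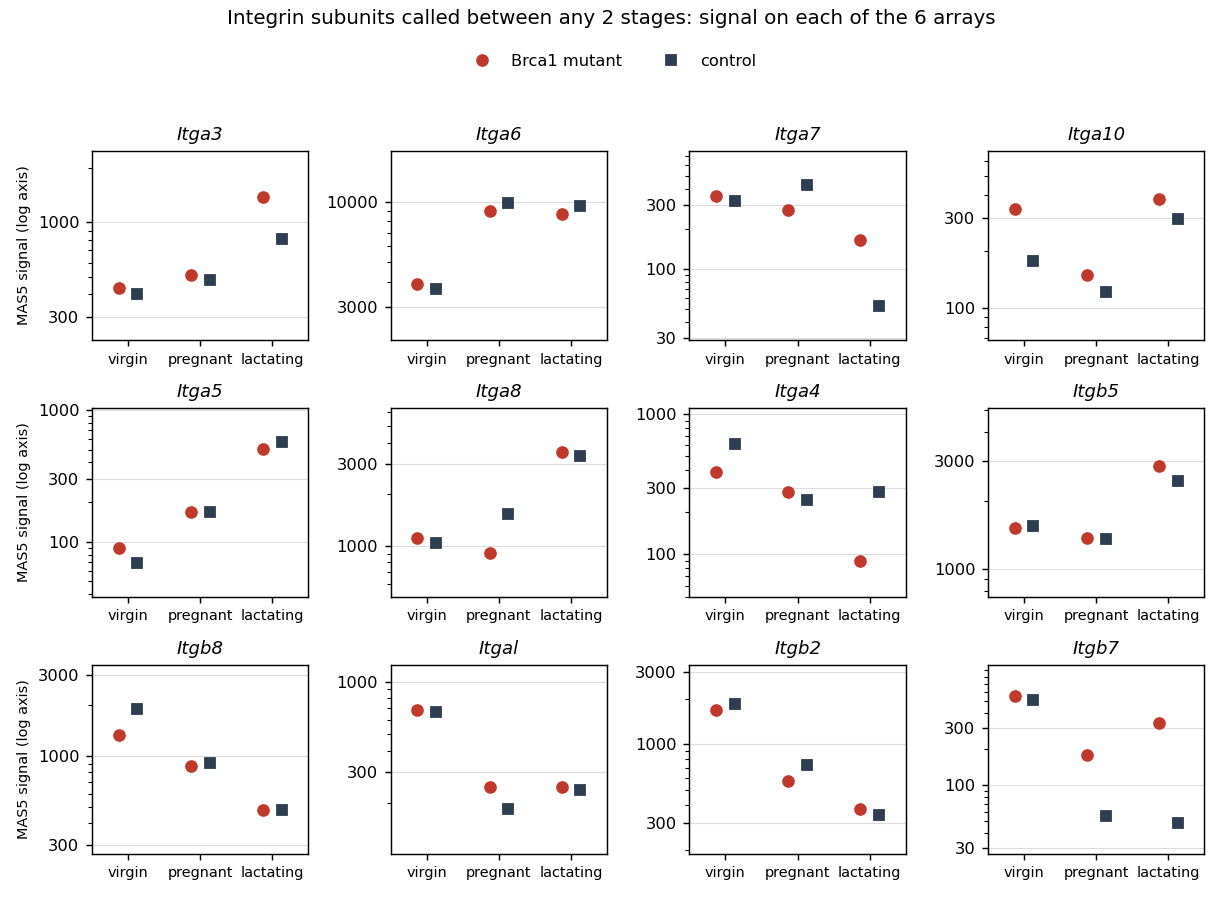
Signals on each of the 6 arrays for the 12 integrin subunits called in at least 1 stage comparison, on log axes that differ between panels, with Brca1 mutants as red circles and controls as dark squares. Itga6 steps up between virgin and pregnant glands, Itga8 only on the lactating arrays (3531 and 3337 in the mutant and control), and Itgal and Itgb2 are highest on the virgin arrays.

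Of the 6 tested leukocyte integrins, 3 fell and 0 rose in lactating against virgin glands, where 28.5% of all tested genes fell and 24.2% rose. Among these 3, Itgb7 entered the test only through the virgin arrays, on which it was highest, so its fall was favoured by the filter. Itgb2, the beta subunit common to the leukocyte family, had signals of 1688 in the virgin mutant and 1859 in the virgin control, 573 in the pregnant mutant and 727 in the pregnant control, and 375 in the lactating mutant and 340.2 in the lactating control. It fell in pregnant against virgin glands (log2 ratio -1.39 ± 0.21, adjusted p = 0.0078), in lactating against pregnant glands (log2 ratio -0.77 ± 0.21, adjusted p = 0.0297) and in lactating against virgin glands (log2 ratio -2.16 ± 0.21, adjusted p = 0.000323). The 3 stages did not overlap.

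Itgal, the alpha subunit that Itgb2 joins on lymphocytes, had signals of 689.8 in the virgin mutant and 664 in the virgin control, 248 in the pregnant mutant and 184 in the pregnant control, and 246 in the lactating mutant and 239 in the lactating control. It fell in pregnant against virgin glands (log2 ratio -1.45 ± 0.24, adjusted p = 0.0105) and in lactating against virgin glands (log2 ratio -1.31 ± 0.24, adjusted p = 0.00359), and pregnant and lactating glands overlapped. The first of these calls was lost with the mean of its probe sets. Itgb7, which joins Itga4 or Itgae on lymphocytes of mucosal tissues, had signals of 553 in the virgin mutant and 506 in the virgin control, 179 in the pregnant mutant and 55.6 in the pregnant control, and 331 in the lactating mutant and 48.3 in the lactating control. Its log2 ratios were -1.88 ± 0.43 for pregnant against virgin (adjusted p = 0.0288) and -1.57 ± 0.43 for lactating against virgin (adjusted p = 0.0181). The virgin arrays were highest on either genotype, and the other 4 arrays, mutants included, lay within the Y-linked range. The first call was lost under quantile normalization, and both were lost with no genotype term. Itgb7 reached the filter in virgin glands only, so both calls compare with the arrays that carried it into the test.

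Itgae, the subunit of the E-cadherin receptor of lymphocytes, had signals of 385 in the virgin mutant and 355 in the virgin control, 386 in the pregnant mutant and 330.1 in the pregnant control, and 299 in the lactating mutant and 290.2 in the lactating control. Itgam and Itgax are the subunits of macrophages, granulocytes and dendritic cells. Itgam had signals of 173 in the virgin mutant and 139 in the virgin control, 171 in the pregnant mutant and 161 in the pregnant control, and 156 in the lactating mutant and 209 in the lactating control. Itgax had signals of 252 in the virgin mutant and 228 in the virgin control, 202 in the pregnant mutant and 155 in the pregnant control, and 121 in the lactating mutant and 394 in the lactating control. None of these 3 genes passed in a stage comparison, Itgam lay within the range of the Y-linked probe sets, and the lactating mutant and control of Itgax were the lowest and the highest array.

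The summed markers of lymphocytes and macrophages were, like Itgb2 and Itgal, highest on the virgin arrays. Of all tested genes, 6.56% rose and 8.03% fell in pregnant against virgin glands. The shares were 15.5% and 17.2% for lactating against pregnant, and 24.2% and 28.5% for lactating against virgin glands. The summed signal of the T and NK cell markers was 12774 in the virgin mutant and 10318 in the virgin control, 4055 in the pregnant mutant and 3073 in the pregnant control, and 3716 in the lactating mutant and 3838 in the lactating control, and 8 of 13 tested markers fell in pregnant against virgin glands, with 0 rising. The sum of the B and plasma cell markers was 17739 in the virgin mutant and 15030.0 in the virgin control, 8099 in the pregnant mutant and 4447 in the pregnant control, and 3979 in the lactating mutant and 4724 in the lactating control, and 11 of 15 fell in the same comparison with 0 rising. Macrophage and dendritic markers summed to 66798 in the virgin mutant and 71101 in the virgin control, 43868 in the pregnant mutant and 43548 in the pregnant control, and 23230.0 in the lactating mutant and 29481 in the lactating control, with 13 of 19 lower and 3 higher in lactating against virgin glands. In lactating against pregnant glands, where Itgb2 fell, 2 T and NK cell markers rose and 1 fell, 4 B and plasma cell markers rose and 3 fell, and 3 macrophage and dendritic markers rose and 12 fell. Neutrophil and platelet markers summed to 4359 in the virgin mutant and 4739 in the virgin control, 3205 in the pregnant mutant and 2773 in the pregnant control, and 3267 in the lactating mutant and 3354 in the lactating control, with 3 of 7 tested higher, 3 lower and a median log2 ratio of 0.61 in lactating against virgin glands. In each of these lists 0 markers lay under the Y-linked median on all arrays, which does not show that each marker was detected. The part of cell number in the lower leukocyte integrins was not tested.

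Markers of stromal cells were, like Lama2, Lama4 and Lamb1, mostly lower in lactating than in virgin glands. Of all tested genes, 8.03% fell in pregnant against virgin, 17.2% in lactating against pregnant and 28.5% in lactating against virgin glands. Fibroblast markers summed to 162700.0 in the virgin mutant and 175940.0 in the virgin control, 108640.0 in the pregnant mutant and 99225 in the pregnant control, and 28616 in the lactating mutant and 20899 in the lactating control. Of the 18 tested, 4 fell and 0 rose in pregnant against virgin glands, 13 fell and 1 rose in lactating against pregnant glands, and 14 fell and 0 rose in lactating against virgin glands, with a median log2 ratio of -2.79 in the last. Endothelial markers summed to 19875 in the virgin mutant and 20501 in the virgin control, 11835 in the pregnant mutant and 10280.0 in the pregnant control, and 7908 in the lactating mutant and 8388 in the lactating control, and 13 of 19 fell and 0 rose in lactating against virgin glands. Adipocyte markers summed to 249720.0 in the virgin mutant and 254360.0 in the virgin control, 180770.0 in the pregnant mutant and 217920.0 in the pregnant control, and 130570.0 in the lactating mutant and 152960.0 in the lactating control, with 11 of 16 lower and 0 higher in that comparison. In pregnant against virgin glands 8 endothelial markers fell and 1 rose, and 6 adipocyte markers fell and 0 rose. Lama2, Lama4 and Lamb1 were not called there. Like these laminins, the fibroblast, endothelial and adipocyte sums were each lowest on both lactating arrays. The part of these cell types in the fall of these laminins was not tested.

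Markers of epithelial cells went in both directions. Luminal markers summed to 71803 in the virgin mutant and 61743 in the virgin control, 72650.0 in the pregnant mutant and 94874 in the pregnant control, and 118350.0 in the lactating mutant and 81281 in the lactating control, with 5 of 19 higher and 3 lower in lactating against virgin glands. Those shares stand against 24.2% of all tested genes higher and 28.5% lower. By p the first of them was Foxa1, a luminal transcription factor that acts with the oestrogen receptor, which fell (log2 ratio -4.25 ± 0.26, adjusted p = 9.09e-05), with signals of 3013 in the virgin mutant and 2385 in the virgin control, 311 in the pregnant mutant and 172 in the pregnant control, and 162 in the lactating mutant and 44.1 in the lactating control. Muc1, a luminal surface mucin, rose by 4.09 ± 0.32 (adjusted p = 0.00016), Elf3, an epithelial transcription factor, by 2.05 ± 0.23 (adjusted p = 0.000473) and Elf5, a transcription factor of alveolar cells, by 1.77 ± 0.22 (adjusted p = 0.000746). Basal markers summed to 54079 in the virgin mutant and 47574 in the virgin control, 60920.0 in the pregnant mutant and 68321 in the pregnant control, and 78607 in the lactating mutant and 57088 in the lactating control, with 9 of 18 higher and 4 lower. Of the basal markers with the smallest p, Sox10, a transcription factor of basal cells, rose by 2.95 ± 0.19 (adjusted p = 9.82e-05) and Acta2, smooth muscle actin, by 1.34 ± 0.22 (adjusted p = 0.00206). Vim, an intermediate filament that fibroblasts also carry, and Procr, a receptor that endothelial cells also carry, fell (log2 ratios -2.41 ± 0.20 and -2.84 ± 0.31, adjusted p = 0.000183 and 0.000457). These markers stand beside the higher Lama5, Lamb3, Itga3 and Itga6, and their part in those was not tested.

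The partners of laminin in the basement membrane were mostly lower in lactating glands. Of 26 tested (nidogens, type IV collagens, perlecan and the dystroglycan complex among them), 16 fell and 2 rose in lactating against virgin glands, with a median log2 ratio of -1.01, where all tested genes had -0.10. Of all tested genes 28.5% fell and 24.2% rose. Nid1, the nidogen that links laminin to type IV collagen, had signals of 8284 in the virgin mutant and 10887 in the virgin control, 5733 in the pregnant mutant and 5252 in the pregnant control, and 1616 in the lactating mutant and 1245 in the lactating control. It fell (log2 ratio -2.70 ± 0.23, adjusted p = 0.000192). The sarcoglycans Sgce and Sgcb, membrane partners of dystroglycan, gave -2.83 ± 0.21 (adjusted p = 0.000124) and -2.34 ± 0.24 (adjusted p = 0.000364), and Smoc1, a matricellular basement membrane protein, gave -2.59 ± 0.22 (adjusted p = 0.000192). In lactating against pregnant glands 11 fell and 1 rose, where 17.2% of all tested genes fell and 15.5% rose. In pregnant against virgin glands 3 fell and 2 rose, where 8.03% of all tested genes fell and 6.56% rose. Those that rose in the last included Sgca, the muscle sarcoglycan, at 1.41 ± 0.36 (adjusted p = 0.0417).

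Of the 6 hemidesmosome genes, 2 rose and 0 fell in lactating against virgin glands, where 24.2% of all tested genes rose and 28.5% fell. The count does not set this list apart. Plec, the plectin that joins Itgb4 to keratins, had signals of 678 in the virgin mutant and 325 in the virgin control, 1517 in the pregnant mutant and 1346 in the pregnant control, and 4603 in the lactating mutant and 3948 in the lactating control. Its log2 ratio was 3.04 ± 0.25 (adjusted p = 0.00017), and it also rose in each of the other stage comparisons, by 1.50 ± 0.25 and 1.54 ± 0.25 (adjusted p = 0.00992 and 0.00545). Krt5, a basal keratin, gave 0.88 ± 0.26 (adjusted p = 0.0224). Col17a1, the hemidesmosomal collagen, gave -0.39 ± 0.29 without passing (adjusted p = 0.289). The list's median was -0.13, so the 2 genes that rose were not matched by the others.

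Of 33 integrin adaptors and kinases, 8 rose and 11 fell in lactating against virgin glands, against 3 and 6 in pregnant against virgin and 4 and 6 in lactating against pregnant glands. For lactating against virgin these shares lay near the 24.2% and 28.5% of all tested genes. Of all tested genes, 6.56% rose and 8.03% fell in pregnant against virgin glands, and 15.5% and 17.2% in lactating against pregnant glands. Fermt3, the kindlin of blood cells that activates integrins, had signals of 1554 in the virgin mutant and 1923 in the virgin control, 656 in the pregnant mutant and 532 in the pregnant control, and 103 in the lactating mutant and 145 in the lactating control. It fell in lactating against virgin glands (log2 ratio -3.35 ± 0.24, adjusted p = 0.000123). Cav1, the caveolin of fat and vessel cells, and Parva, a parvin of focal adhesions, gave -2.19 ± 0.25 (adjusted p = 0.000503) and -1.72 ± 0.24 (adjusted p = 0.00106). Cd82, a tetraspanin that binds integrins, rose by 2.58 ± 0.24 (adjusted p = 0.000282). Src, a kinase of focal adhesions, rose by 1.74 ± 0.28 in lactating against pregnant glands (adjusted p = 0.00582). Itgb1bp2, a muscle protein that binds Itgb1, rose by 2.14 ± 0.28 in pregnant against virgin glands (adjusted p = 0.00512), as the skeletal muscle markers did.

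Of 27 tested integrin ligands other than laminins, 14 fell and 5 rose in lactating against virgin glands, with a median of -1.04. Of all tested genes 28.5% fell and 24.2% rose. Fn1, fibronectin, the ligand of Itga5, had signals of 12748 in the virgin mutant and 12529 in the virgin control, 5297 in the pregnant mutant and 2849 in the pregnant control, and 1335 in the lactating mutant and 962 in the lactating control. It fell (log2 ratio -3.42 ± 0.24, adjusted p = 0.000112), while the Itga5 probe set used rose. Vcam1, the ligand of Itga4, gave -3.85 ± 0.25 (adjusted p = 9.92e-05), Tgfbi, a secreted adhesion protein, -3.53 ± 0.20 (adjusted p = 7.72e-05) and the type I collagen gene Col1a2 -3.48 ± 0.23 (adjusted p = 1e-04). In pregnant against virgin glands 8 fell and 3 rose, where 8.03% of all tested genes fell and 6.56% rose. Mfge8, the milk fat globule protein that binds integrins of Itgav, rose there by 1.55 ± 0.25 (adjusted p = 0.00955). In lactating against pregnant glands 11 fell and 5 rose, where 17.2% of all tested genes fell and 15.5% rose. Ccn3, a matricellular ligand, rose there by 2.37 ± 0.26 (adjusted p = 0.00199).

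**Figure D4:**
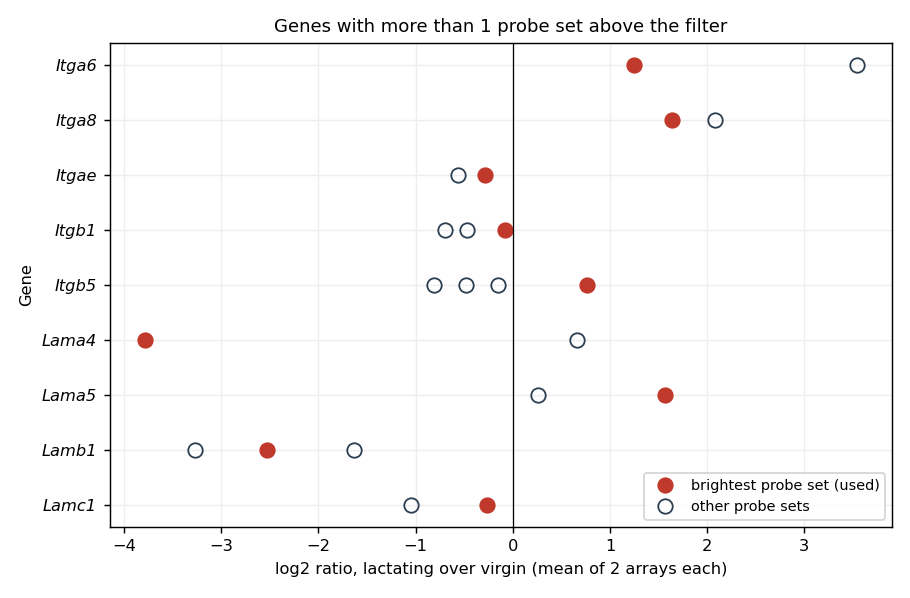
Log2 ratio of lactating over virgin glands for the 9 genes with more than 1 probe set above the filter, with the probe set used as a filled point and the others open, each the mean of 2 arrays per stage. The probe sets of Itgb5 and Lama4 lie on both sides of 0, and those of Lamb1, Itga6, Itga8 and Lama5 lie on the same side.

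The comparison the study was built for, Brca1 mutant against control, showed no laminin or integrin gene past the threshold. In the model with stage as a block, 0 of 30 tested genes were called, and 0 of all 11562 (0%), the lowest adjusted p being 0.945. That model averages the conditional allele of the pregnant pair with the D11/D11 genotype of the virgin and lactating pairs. At an unadjusted threshold of 0.05, 1 of the 30 passed, Itgb7, and 4.64% of all tested genes did. The median log2 ratio of the 30 genes was 0.02, and that of all tested genes 0.03. Higher signals in the mutant of all 3 pairs were found for 6 of the 30 (15% of all tested genes), lower signals in all 3 for 1 (10.6% of all tested genes), and 23 went both ways.

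Itgb7 had the highest log2 ratio, 1.05 ± 0.35 (SE, n = 3 pairs, limma adjusted p = 0.945). Its signals in the mutant and control were 553 and 506 in the virgin pair, 179 and 55.6 in the pregnant pair, and 331 and 48.3 at lactation. The log2 ratio thus differed widely among pairs, at 0.12 for virgin glands, 1.10 for pregnant glands and 1.93 for lactating glands, and in the pregnant and lactating pairs both mutant and control were within the range of the Y-linked probe sets. The tested T and NK cell markers had a median of 0.30 and the B and plasma cell markers of 0.24 in the same comparison, with 0 called. Their part in the Itgb7 ratio was not tested.

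The next genes by the moderated statistic that were higher in the mutant of each pair were Lamc1, Itga10, Itga3 and Itgal. Lamc1 gave 0.30 ± 0.17 (adjusted p = 0.945), with 1546 in the lactating mutant against 1036 in the lactating control as its widest gap. Itga10 gave 0.42 ± 0.24 (adjusted p = 0.945), Itga3 0.30 ± 0.20 (adjusted p = 0.945) and Itgal 0.14 ± 0.20 (adjusted p = 0.965). Itgae also was higher in each pair, at 0.11 ± 0.19. Lamb1 was the single gene lower in the mutant of each pair, at -0.21 ± 0.15 (adjusted p = 0.945). All 7 of these log2 ratios except that of Itgb7 were under 0.5 in size, smaller than the stage differences called above.

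Within the pairs, which carry no test because each genotype is 1 array, genes at least 2-fold apart were counted. In the virgin pair 0 of the 30 genes were 2-fold apart (2.69% of all tested genes). In the pregnant pair Itgb7 was at least 2-fold higher in the mutant, at 1.10 on the log2 scale, and 0 were lower (2.01% of all tested genes). Among the 2 lactating arrays, 3 genes were higher in the mutant by that margin and 2 were lower (6.37% of all tested genes). Those higher were Itgb7 at 1.93, Itgb4 at 1.06, with 689 in the mutant against 303 in the control, and Itga7 at 1.06, with 165 against 52.5. Those lower were Itga4 at -1.22, with 89.8 in the mutant against 278 in the control, and Itgax at -1.36, with 121 against 394. The median ratio of the 30 genes was 0.11, 0.01 and 0.01 in the virgin, pregnant and lactating pair, and over all tested genes 0.02, 0.02 and 0.05.

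**Figure D5:**
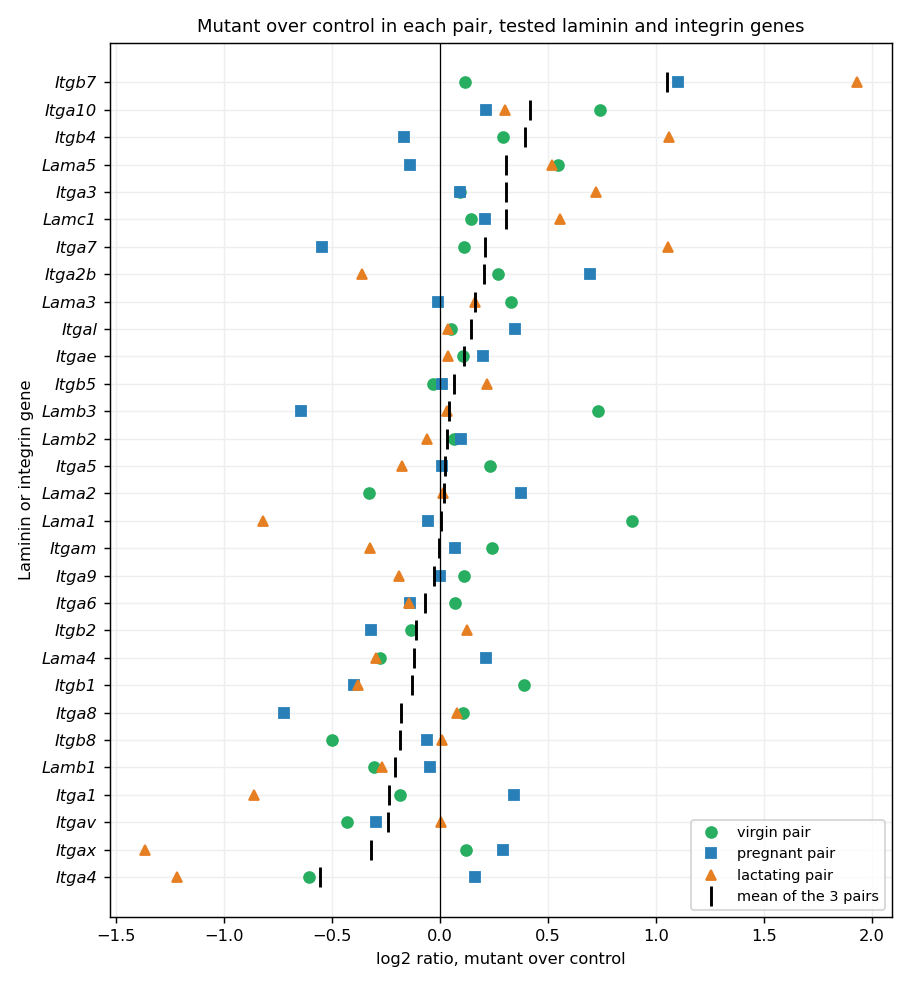
Log2 ratio of mutant over control for the 30 tested laminin and integrin genes in the virgin (circles), pregnant (squares) and lactating (triangles) pair, with the mean of the 3 pairs as a bar, ordered by that mean. Itgb7 leads with a mean of 1.05, and most other genes have pairs on both sides of 0.

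Among the partner genes, 0 passed between mutant and control. The basement membrane partners had a median of 0.07, the hemidesmosome genes of -0.01, the adaptors and kinases of 0.07 and the other ligands of 0.02. Hspg2, perlecan, the heparan sulphate proteoglycan of basement membranes, had the largest ratio among the partners named by the rule, 1.20 ± 0.41 (adjusted p = 0.945). Its signals were 1553 in the lactating mutant against 208 in the lactating control, 874 in the pregnant mutant against 709.6 in the pregnant control, and 681 in the virgin mutant against 405 in the virgin control. The mutant was higher in each pair, but the gap of the lactating pair set most of the mean. Ccn3 gave -0.71 ± 0.21, Krt5 0.58 ± 0.21, Utrn, the muscle and nerve relative of dystrophin, -0.47 ± 0.16, and Lims2, an adaptor of focal adhesions, -0.47 ± 0.16, each with an adjusted p of 0.945.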

How the data were processed

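Total RNA of 6 whole mammary glands was measured on a mouse 3' expression array with 1 mouse each, per the labels. What the authors deposited are signal intensities made with MAS5, per the submitters' processing notes (version not given in the sources used here), on a linear scale at which each array has a 2%-trimmed mean of 500. Probe sets were named from the platform annotation: of 45101, 64 were controls, 34945 had 1 symbol, 932 had several and 9160 are unnamed here. A gene's probe set with the highest mean signal was used (18193 genes). The log2 of signal + 52.1 was used, the added constant being the 25th percentile over the whole table, so log2 ratios of dim genes are understated. A filter kept the 11562 genes whose mean reached 7.72, the median over all probe sets. Of the 30 tested laminins and integrins, 7 lay below that level in some stage and passed through the others, so counts over the tested genes are not counts over all 34. They were Itga5, Itga7, Itga10, Itgam, Itgb7, Lama2 and Lama4. Calls among them use the same arrays that carried them past the filter.

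A linear model in limma 3.58.1 under R 4.3.3 held stage and genotype (empirical Bayes with trend, 2 residual and 5.53 prior degrees of freedom). Benjamini-Hochberg adjustment of the p-values ran over all tested genes. Mutant and control share a stage, so the stage is their block, and deviations from the genotype means correlated within pairs across genes (r = 0.859 for virgin, 0.587 for pregnant and 0.827 for lactating arrays, genes not being independent replicates). These deviations still hold the differences between stages, so the correlations show a shared stage and no closer match of the mice. Nothing says that the mice were littermates, and the small number of arrays limits the precision. Standard errors come from the model. Every laminin and integrin was named. Full statistics were given for called genes, for up to 5 genes at either end of the moderated statistic that had the same sign in all 3 pairs, and for up to 4 genes of each partner list by smallest p, of which some are left out for brevity. The genes and the lists of partners and cell type markers were chosen with earlier results of these data known. Alternatives changed the normalization, pseudocount, filter, choice of probe set, variance trend and model terms, or left out arrays. The code was tested on simulated data. Figures were drawn with matplotlib 3.10.9.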

Additional observations from a re-analysis of the deposited data

Results flagged for a closer look

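Lama1 differed in direction between pairs. The mutant was higher in the virgin pair, with 431 in the mutant against 208 in the control (log2 ratio 0.89), and lower in the lactating pair, with 396 in the mutant against 738 in the control (log2 ratio -0.82). The 2 ratios lay 1.71 apart. Lamb3 was higher in the mutant of the virgin pair, with 886 against 513 in the control (log2 ratio 0.73), and lower in the mutant of the pregnant pair, with 1581 against 2497 in the control (log2 ratio -0.64), which are 1.37 apart. Both were taken because the mutant was at least 1.5-fold higher in one pair and at least 1.5-fold lower in another. Each ratio compares 1 mouse with 1 mouse, and the difference between pairs was not tested.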

How the results depend on the processing

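With 2 arrays per stage and 1 per genotype and stage, the spread between mice of a group is known only through the model, and dim genes such as Itgam, Itgb3 and Itgb6 lie within the range of probe sets that should be dark. For mutant against control 0 laminins and integrins were called under each alternative tried (14 to 34 tested), also with no replicate block for the stage (0 genes in all). Without the lactating pair 2 genes were called in all, none of them a laminin or integrin, and for pregnant against virgin 2769 genes, against 1687 with all arrays. Quantile normalization left 4 laminins and integrins and 1121 genes for pregnant against virgin, and averaging a gene's probe sets left 4 laminins and integrins. The filter at the 75th percentile left 2202 genes for lactating against pregnant (3771 with the lower filter), and 11 of the 14 laminins and integrins still tested and 3680 genes for lactating against virgin (17 and 6089 with the lower filter), with fewer genes tested. Leaving out 1 array gave 0 to 0 laminins and integrins and 0 to 2 genes for mutant against control, 0 to 9 and 312 to 2775 for pregnant against virgin, 4 to 12 and 1280 to 3648 for lactating against pregnant, and 13 to 17 and 3539 to 5761 for lactating against virgin. Centring arrays on their medians moved the median of all tested genes to -0.24, -0.45 and -0.69 in the 3 stage comparisons, in the order just given. With it, 514 genes were higher and 1358 lower for pregnant against virgin (759 and 928 at the deposited scaling), 819 and 3839 for lactating against pregnant (1788 and 1983), and 1362 and 5728 for lactating against virgin (2797 and 3292). For the laminins and integrins these were 2 and 6, 2 and 8, and 5 and 16. Itgb5 turned round: lactating against pregnant gave -0.054 and lactating against virgin -0.17 with the mean of its probe sets, and -0.59 and -0.16 where probe sets prone to cross-hybridisation were avoided. Of 263 values of called genes for lactating against virgin 248 stayed past the threshold in the same direction, as did 146 of 171 for lactating against pregnant and 85 of 117 for pregnant against virgin. The cause of these shifts was not tested.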

Other observations

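Nerve and Schwann cell markers summed to 8236 in the virgin mutant and 11835 in the virgin control, 7180.3 in the pregnant mutant and 7182 in the pregnant control, and 15118 in the lactating mutant and 13512 in the lactating control, with 2 of 6 tested higher and 2 lower in lactating against virgin glands. Of all tested genes 24.2% were higher and 28.5% lower. Sox10, also counted among the basal markers, made up most of the lactating sums, with 12069 in the lactating mutant and 9450 in the lactating control. It had 1544 in the virgin mutant and 1156 in the virgin control. The higher sum thus follows Sox10, while Pmp22 and Mbp fell (log2 ratios -2.48 and -1.84). Pericyte and smooth muscle markers summed to 30112 in the virgin mutant and 30675 in the virgin control, 36531 in the pregnant mutant and 39130.0 in the pregnant control, and 46932 in the lactating mutant and 37880.0 in the lactating control, with 3 of 11 higher and 4 lower in lactating against virgin glands. Acta2, also counted among the basal markers, made up much of these sums. Its signals were 13663 in the virgin mutant and 11963 in the virgin control, 22813 in the pregnant mutant and 26872 in the pregnant control, and 36996 in the lactating mutant and 28388 in the lactating control. The rise of the sum thus follows Acta2 and does not describe the list as a whole. Among the pericyte and smooth muscle markers Pdgfrb, the pericyte receptor of platelet-derived growth factor, had -2.41 ± 0.26 (limma adjusted p = 0.000461) and Notch3, a receptor of vessel-wall muscle, 1.31 ± 0.20 (limma adjusted p = 0.00143), so 2 genes of the same cell type list moved in opposite directions.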
